A study of Homo sapiens with 17 samples.

Results

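Depletion of mutant p53 (mutp53) was compared with a control knockdown in SW480 cells that had been exposed to TNF-α for 16 h. SW480 is an established human colon cancer line whose p53 is mutant. The comparison used 4 of the 8 mRNA-seq libraries of the series, 2 from control and 2 from mutp53-depleted cells, and covered the 14800 of 26457 listed genes whose mean over the 8 libraries was at least 2.5 normalized reads. Control cells carried a short hairpin RNA (shRNA) against LacZ and mutp53-depleted cells an shRNA against p53. Both hairpins were stably integrated and induced with 1 μg/ml doxycycline under 1.5 μg/ml puromycin, so control cells received doxycycline and puromycin as well. TNF-α was given at 12.5 ng/ml, and the remaining 4 libraries came from the same lines without it (0 h). The lines were separate, so a difference between them that preceded the hairpin's induction cannot be told apart from depletion.

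The p53 protein is a transcription factor that halts growth or kills cells under stress. Missense mutants lose much of this activity, accumulate in tumours and can alter transcription at sites that other factors occupy. TNF-α is an inflammatory cytokine that releases NF-κB, whose RelA (p65) and RelB subunits turn on genes for chemokines, cytokines, their receptors and survival proteins. In the colon, prolonged inflammation of this kind is a known setting for tumour growth.

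Values are normalized reads, that is, reads on a gene's exons scaled so that every library has the same total. The 4 libraries at 16 h held from 6504713 to 11038139 reads on genes, and 1 read was worth between 0.838 and 1.42 normalized reads. The 2 libraries of a group were biological replicates by the study's methods, so every value below has n = 2 a group. Transcripts of simple epithelium were abundant in all libraries (KRT8, KRT18 and KRT19, epithelial keratins, EPCAM, an epithelial adhesion protein, and CDX2, an intestinal transcription factor), whereas CDH17, an intestinal cadherin, was at 0 in all 4 libraries at 16 h. PTPRC and CD3D, which define leukocytes, COL1A2, COL3A1, LUM and DCN, which define fibroblasts, and KDR and TEK, which define endothelium, were also at 0 in these 4 libraries. The 10 leukocyte markers summed to 55.5 to 60.9 normalized reads in control and 85.2 to 87.2 in depleted libraries, most of it CD68, and the 6 endothelial markers to 5.69 to 6.77 and 17.6 to 28.4, mainly VWF and CDH5.

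After 16 h of TNF-α, 2255 genes (15.2% of those tested) differed by at least 2-fold at an adjusted p under 0.05, the rule for a call throughout. There were 744 higher in mutp53-depleted cells (5.03%) and 1511 lower (10.2%), and these shares are the background for every list below. The median over all 14800 genes was −0.0065 on the log2 scale. At least 4-fold differences were reached by 211 of the higher and 401 of the lower genes. The separate 0 h libraries gave the same sign for 725 of the 744 higher genes and 1457 of the 1511 lower genes, with 496 and 1009 called in the same direction there. Differences are log2(value + 1) values of mutp53-depleted less control cells with the standard error (SE) of the limma fit, a scale that understates changes of low genes. In these cultures, fewer cells expressing a gene and less RNA per cell cannot be told apart.

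**Figure D1:**
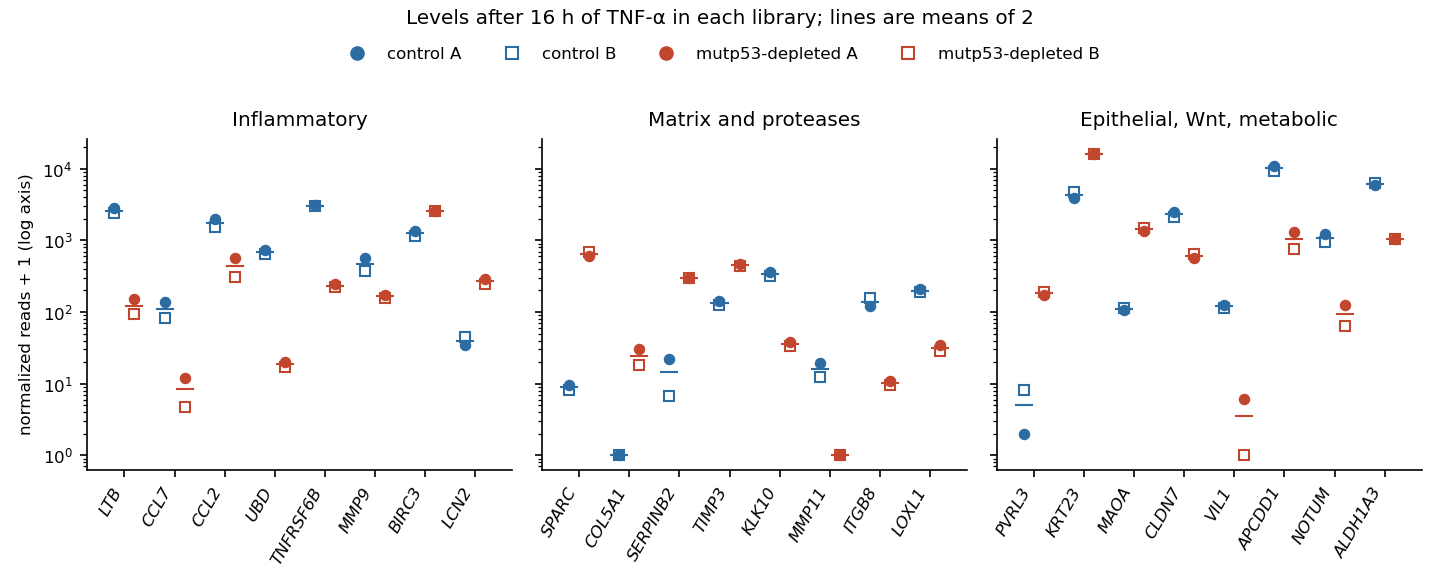
Normalized reads plus 1 (log axis) of 24 genes in the 4 libraries after 16 h of TNF-α, in control (blue) and mutp53-depleted cells (red), with circles for replicate A, squares for replicate B and lines at the mean of 2. No gene's groups overlapped, and genes at the bottom of the axis had 0 reads.

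Several secreted inflammatory ligands were lower in mutp53-depleted cells. LTB, the lymphotoxin β ligand of the TNF family (chr6:31548336-31550202, hg19), was 2791 and 2374 in control and 151 and 92.6 in mutp53-depleted cells, a difference of −4.43 (SE 0.52, limma adjusted p = 1.1e-06). CCL7, a monocyte attractant (chr17:32597235-32599261), was 139 and 82.5 in control and 10.9 and 3.7 in mutp53-depleted cells, a difference of −3.85 (SE 0.62, limma adjusted p = 4.0e-05). CCL2, the closely related monocyte attractant beside it on chromosome 17 (chr17:32582296-32584220), was 1968 and 1561 in control and 576 and 305 in mutp53-depleted cells, a difference of −2.06 (SE 0.29, limma adjusted p = 1.0e-05). For all 3 genes each depleted library was below each control library. Without TNF-α, CCL7 had 0 reads in all 4 libraries, and CCL2 and LTB did not exceed 5.36 and 7.37 normalized reads.

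Of the 39 cytokines and chemokines tested, 8 were called higher and 7 lower at 0 h, with a list median of 0.00. At 16 h, 14 were called lower and 1 higher, with a list median of −0.75. The lower genes also included CCL20, CCL11 and CCL24, which attract lymphocytes and eosinophils, TNF itself, IL23A and EBI3, which are subunits of dimeric interleukins, IL11, IL16, and the TNF-family ligands TNFSF9 and TNFSF10. IL17C, an epithelial cytokine that acts on the cells that release it, was 23.2 and 29.9 in control and 0 and 2.47 in mutp53-depleted cells, a level 25.9-fold (interval 6.78 to 221, limma adjusted p = 1.4e-04) lower. The intervals of fold values are exact 95% intervals of the ratio of read totals and cover counting error only. The gene called higher was IL7, a lymphocyte growth factor, at 0 and 1.42 in control and 9.22 and 6.17 in mutp53-depleted cells, 13.9-fold (interval 2.16 to 582, limma adjusted p = 0.015). Its call was lost without replicate A of either group at 16 h (limma adjusted p = 0.11 and 0.097) and with a pseudocount of 0.1. The depletion effect differed between 16 h and 0 h for 8 of the 39 genes (limma interaction at an adjusted p under 0.05), against 424 of all 14800 genes (2.86%). Genes with few or no reads at 0 h, such as CCL7, CCL2 and LTB, could not show such a fall there. For these genes the count does not show that TNF-α changed the depletion effect.

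The promoters of these genes are shown where a κB element was found, since NF-κB is the factor that TNF-α activates. RefSeq promoter windows (GRCh38.p14, 300 bases, of which 50 lie past the start) could be matched to 11528 of the 14800 genes, or 77.9%. The windows were searched on both strands for the NF-κB consensus of 10 bases, which 760 (6.59%) held. Because under 80% of genes had a window, a comparison of shares between called genes and all genes is void. Among the 14 lower cytokine and chemokine genes, 11 had a window and 3 of these held a match, as did UBD, a ubiquitin-like modifier described below. Of all 27 tested cytokine and chemokine genes with a window, 9 held a match, so matches were not limited to the lower genes. UBD was 1 of 6 further genes looked up, of which CFB and TNFRSF6B had a window without a match and C3, MMP9 and RELB were not matched to a window. Each stretch reads 5′ to 3′ along the gene's strand, with the match in capitals. None of these matches overlapped an AP-1 (TGANTCA), ETS (CCGGAAGT) or p53 half-site motif. The flank of the IL23A stretch does hold an AP-1 motif, in small letters (tgagtca). A match does not show that a factor binds there.
LTB, chr6:31582477-31582536, minus strand: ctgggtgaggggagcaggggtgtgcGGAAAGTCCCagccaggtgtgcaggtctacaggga
CCL20, chr2:227813738-227813797, plus strand: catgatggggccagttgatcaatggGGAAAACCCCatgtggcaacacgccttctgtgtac
IL23A, chr12:56338764-56338823, plus strand: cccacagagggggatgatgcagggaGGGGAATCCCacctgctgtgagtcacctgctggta
UBD, chr6:29559751-29559810, minus strand: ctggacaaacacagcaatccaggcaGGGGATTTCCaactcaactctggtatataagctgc

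More receptors for such ligands were called lower than higher. TNFRSF6B, a soluble decoy receptor that binds FAS ligand and other TNF-family ligands (chr20:62328004-62330051), was 3074 and 2993 in control and 242 and 222 in mutp53-depleted cells, a difference of −3.70 (SE 0.12, limma adjusted p = 1.3e-13). IL17RB, a receptor chain for IL-17B and IL-25, was 308 and 262 in control and 40.2 and 29.6 in mutp53-depleted cells, a difference of −3.004 (SE 0.18, limma adjusted p = 1.7e-10). In the receptor list, 16 of 48 genes were called lower and 2 higher, with a median of −0.69, and without depleted replicate B at 16 h the lower count was 10. The lower set also held CXCR4, a chemokine receptor, TNFRSF11B, the decoy receptor osteoprotegerin, and IL4R, IL18R1, IL20RA, IL27RA and IFNAR2. The 2 higher genes were TNFRSF8 (CD30), at 1.93 and 0 in control and 36 and 25.9 in mutp53-depleted cells or 27.8-fold (interval 7.38 to 234, limma adjusted p = 1.3e-05), and NGFR, the low-affinity neurotrophin receptor, at 992 and 797 in control and 2198 and 2149 in mutp53-depleted cells or 1.29 (SE 0.088, limma adjusted p = 1.1e-09). NGFR lies among chromosome 17 neighbours whose median difference was 0.47, and with that median subtracted it was 0.81 and no longer called.

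By contrast, few intracellular components of the NF-κB pathway were called, 2 higher and 2 lower of 46, with a median of −0.053. MAP3K14, the kinase NIK that starts the non-canonical branch, was 229 and 226 in control and 641 and 711 in mutp53-depleted cells, a difference of 1.56 (SE 0.094, limma adjusted p = 2.2e-10). RELB, the subunit which that branch releases, was 1387 and 1268 in control and 662 and 597 in mutp53-depleted cells, a difference of −1.07 (SE 0.12, limma adjusted p = 5.2e-07). TNFAIP2, a TNF-induced gene, was 7946 and 6458 in control and 2738 and 2614 in mutp53-depleted cells, a difference of −1.42 (SE 0.083, limma adjusted p = 1.6e-10). BIRC3, a ubiquitin ligase of the TNF receptor complex, was 1371 and 1169 in control and 2591 and 2541 in mutp53-depleted cells, a difference of 1.02 (SE 0.20, limma adjusted p = 2.7e-04) that lies at the 2-fold limit. BIRC3 was just under 2-fold by edgeR (0.9992 on the log2 scale by the quasi-likelihood test), or without control replicate B at 16 h (0.90), and RELB was not called once its neighbours' median was subtracted (−0.59). At 0 h, BIRC3 had been 7.98 and 16.7 in control and 188 and 176 in mutp53-depleted cells, a difference of 3.86, and TNFAIP2 had been 441 and 445 in control and 1049 and 1039 in mutp53-depleted cells, a difference of 1.24. Over the whole list at 0 h, 7 of the 46 genes were called higher and 0 lower, with a median of 0.306. For 14 of the 46 genes the depletion effect differed between the times.

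Genes of antigen presentation were called at a share near that of all genes, 4 of 34 lower (11.8% against 10.2%), and the count was 2 without control replicate A at 16 h and 7 without control replicate B. UBD, also known as FAT10, was 744 and 647 in control and 19.3 and 16 in mutp53-depleted cells (chr6:29523389-29527702), a difference of −5.22 (SE 0.43, limma adjusted p = 1.1e-08), and it had 0 reads in all 4 libraries without TNF-α. HLA-F, a class I gene, was 193 and 129 in control and 62 and 62.9 in mutp53-depleted cells, a difference of −1.33 (SE 0.22, limma adjusted p = 4.9e-05). TAP1, a chain of the peptide transporter, was also called lower, and none was higher. By sign, 32 had a negative difference, around a median of −0.51. LTB, UBD, the HLA genes and the complement genes C2 and CFB are each annotated at several places in hg19 because alternate versions of that region are listed, so that reads could be split among them and their counts are uncertain.

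Interferon-stimulated genes moved in both directions, 8 of 58 higher and 6 lower. UBE2L6, the enzyme that conjugates ISG15, was 25.1 and 22.8 in control and 200.4 and 190.1 in mutp53-depleted cells, a difference of 2.98 (SE 0.22, limma adjusted p = 3.9e-09). IFI16, a DNA sensor, was 0 and 0 in control and 10.9 and 13.6 in mutp53-depleted cells, a level at least 3.42-fold higher when the control is set to 3 reads per library (limma adjusted p = 3.4e-04). IFI35, SAMD9, SP110, IFITM1, EPSTI1 and OASL were the other higher genes, and the OASL call did not hold once its neighbours' median was subtracted. IFI27, IFI30, IFI6, IRF3 and IRF5 were among the lower genes. Genes of complement and the acute phase formed 1 list, in which 5 of 26 were lower and 3 higher. The lower count was 8 without depleted replicate A at 16 h and 3 without depleted replicate B. The only complement gene among the 3 higher was C1S, whose call did not hold once its neighbours' median was subtracted. The others were LCN2 and PI3. The proteases C2 and CFB, which start the classical and alternative convertases, were 34.8 and 39.8 in control and 1.68 and 1.23 in mutp53-depleted cells for C2, 24.6-fold (interval 8.05 to 122, limma adjusted p = 1.6e-05) lower, and 27.1 and 24.2 in control and 2.52 and 0 in mutp53-depleted cells for CFB, 17.3-fold (interval 5.55 to 87, limma adjusted p = 3.6e-04) lower. LCN2, an iron-siderophore binder of the innate response, was 33.8 and 44.1 in control and 293 and 248 in mutp53-depleted cells, a difference of 2.77 (SE 0.24, limma adjusted p = 2.7e-08). PI3, the elastase inhibitor elafin, was 2.9 and 8.54 in control and 36 and 42 in mutp53-depleted cells, a difference of 2.71 (SE 0.62, limma adjusted p = 0.0013).

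**Figure D2:**
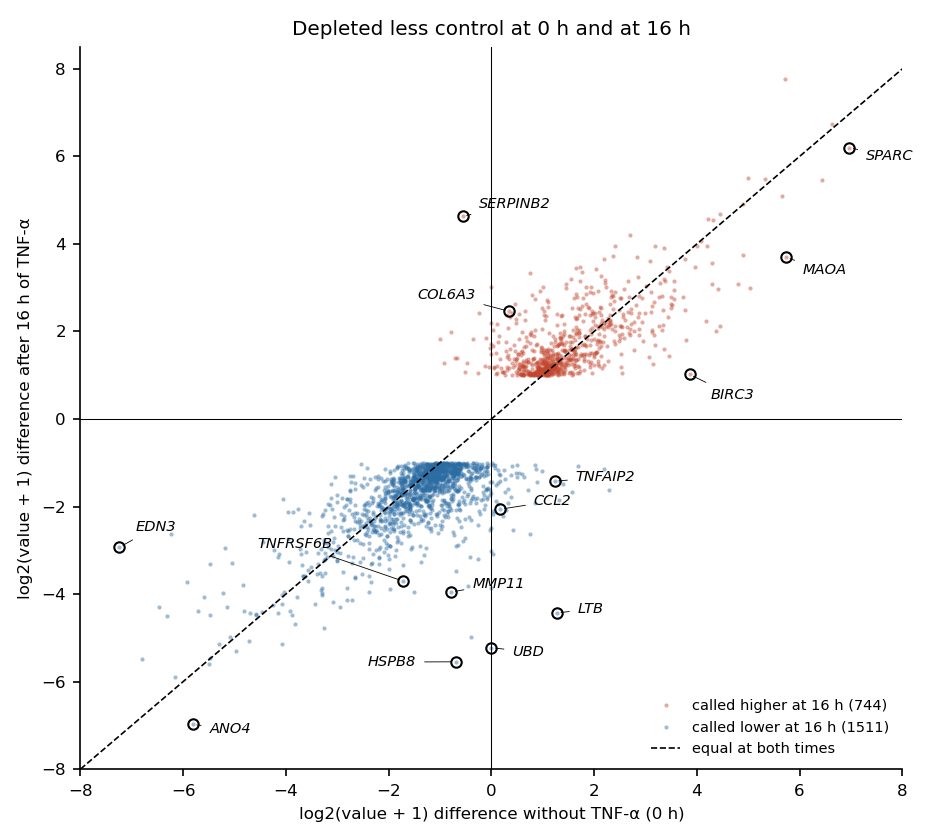
The log2(value + 1) difference of mutp53-depleted less control cells without TNF-α (x axis) and after 16 h of it (y axis) for the 744 genes called higher (red) and 1511 called lower (blue) at 16 h. The dashed line marks equality and most points have the same sign at both times. SERPINB2 and COL6A3 were higher after TNF-α with 0 h differences of −0.56 and 0.34, and LTB and TNFAIP2 lie below 0 at 16 h and above it at 0 h. At 0 h LTB did not exceed 7.37 normalized reads and its groups overlapped.

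Matrix and protease genes changed in both directions. SPARC, a collagen-binding glycoprotein (chr5:151040657-151066615), was 8.7 and 7.11 in control and 606 and 697 in mutp53-depleted cells, a difference of 6.20 (SE 0.19, limma adjusted p = 7.7e-14). COL5A1, a fibril collagen chain, was 0 and 0 in control and 29.3 and 17.3 in mutp53-depleted cells, a level at least 6.5-fold higher (limma adjusted p = 4.9e-06). COL6A3, a beaded-filament collagen chain, was 15.5 and 9.96 in control and 69.6 and 76.5 in mutp53-depleted cells, a difference of 2.46 (SE 0.27, limma adjusted p = 3.8e-07). LOX, CTGF, CYR61 and LAMA2, a crosslinking enzyme, 2 matricellular proteins and a laminin chain, were among the other higher genes. On the opposite side, ITGB8, an integrin chain that activates latent TGF-β, was 121 and 154 in control and 10.1 and 8.64 in mutp53-depleted cells, a difference of −3.73 (SE 0.27, limma adjusted p = 2.1e-09). LOXL1, an elastin-crosslinking enzyme, was 207 and 188 in control and 33.5 and 27.1 in mutp53-depleted cells, a difference of −2.67 (SE 0.17, limma adjusted p = 5.8e-10). FBLN1, an extracellular glycoprotein, was 102 and 65.4 in control and 10.9 and 24.7 in mutp53-depleted cells, a difference of −2.25 (SE 0.31, limma adjusted p = 6.6e-06). In all, 12 of 77 matrix and integrin genes were higher and 16 lower, with a median of −0.12 that became 0.04 when neighbours were subtracted. The higher count was 6 by DESeq2 and 7 without control replicate B at 16 h. The summed level of the 9 fibroblast markers was 32.9 and 29.9 normalized reads in control and 57.0 and 65.4 in depleted libraries, most of it COL1A1, while COL1A2, COL3A1, LUM, DCN and FAP were at 0 in these 4 libraries. Their part in the matrix result was not tested.

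Proteases and their inhibitors were called lower more often than higher, 16 of 53 against 6 higher, with a median of −0.48 that was −0.077 with no filter on low values, −0.30 with a mean of at least 10 and −0.29 with a pseudocount of 5. KLK10, a kallikrein-type serine protease, was 363 and 317 in control and 36.9 and 32.1 in mutp53-depleted cells, a difference of −3.26 (SE 0.20, limma adjusted p = 2.5e-10). MMP11 (stromelysin 3) was 18.4 and 11.4 in control and 0 and 0 in mutp53-depleted cells, a level at least 4.78-fold lower (limma adjusted p = 1.2e-06). TMPRSS2, a membrane-anchored serine protease, was 25.1 and 14.2 in control and 3.35 and 1.23 in mutp53-depleted cells, a difference of −2.68 (SE 0.44, limma adjusted p = 4.9e-05). ST14 (matriptase), its inhibitors SPINT1 and SPINT2, the lysosomal cathepsins CTSA, CTSC, CTSD and CTSH, and SERPINB5 fell as well. The higher genes were led by SERPINB2, an inhibitor of plasminogen activators, which was 21.3 and 5.69 in control and 302 and 299.9 in mutp53-depleted cells, a difference of 4.63 (SE 0.48, limma adjusted p = 2.2e-07). TIMP3, a metalloproteinase inhibitor, was 141 and 125 in control and 462 and 437 in mutp53-depleted cells, a difference of 1.75 (SE 0.11, limma adjusted p = 2.7e-10), and MMP2, a gelatinase, was 5.8 and 4.27 in control and 34.4 and 34.6 in mutp53-depleted cells, a difference of 2.57 (SE 0.36, limma adjusted p = 9.7e-06). MMP9, the other gelatinase and 1 of the genes the study singled out, was 568 and 369.9 in control and 172 and 158 in mutp53-depleted cells, a difference of −1.47 (SE 0.46, limma adjusted p = 0.012). Its call was lost without control replicate A (−1.16, limma adjusted p = 0.16), without depleted replicate B (−1.41, limma adjusted p = 0.069) and with a pseudocount of 0.1 (limma adjusted p = 0.30).

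Among genes of the epithelial and enterocyte programme, more were called lower than higher. VIL1 (villin), an actin bundler of the microvillus (chr2:219283838-219314248), was 125 and 112 in control and 5.03 and 0 in mutp53-depleted cells, a difference of −5.60 (SE 0.51, limma adjusted p = 4.5e-08). EPS8L3, a relative of the microvillus protein EPS8, was 251 and 236 in control and 25.1 and 16 in mutp53-depleted cells, a difference of −3.53 (SE 0.19, limma adjusted p = 5.8e-11). USH1C (harmonin), a brush border scaffold, was 58 and 93.9 in control and 8.38 and 6.17 in mutp53-depleted cells, a difference of −3.19 (SE 0.30, limma adjusted p = 6.3e-08). In the intestinal list, 13 of 30 genes were lower and 2 higher, while by sign 17 were negative and 13 positive, and the lower set held the transcription factors HNF4A, FOXA1, FOXA2 and VDR. GATA6, a further gut transcription factor, went the other way, at 5.8 and 11.4 in control and 65.4 and 58 in mutp53-depleted cells, a difference of 2.77 (SE 0.35, limma adjusted p = 3.2e-06). Cell junction genes were called lower in 16 of 51 cases and 44 had a negative sign, with a median of −0.49. CLDN7, a tight junction claudin, was 2519 and 2152 in control and 559 and 653 in mutp53-depleted cells, a difference of −1.94 (SE 0.091, limma adjusted p = 1.0e-11), and CRB3, a polarity protein, was 132 and 145 in control and 29.3 and 45.7 in mutp53-depleted cells, a difference of −1.89 (SE 0.20, limma adjusted p = 3.5e-07). CLDN1, CLDN3, CLDN4, CDH3, EPCAM, TJP3 and the splicing factor ESRP1 also fell. The summed level of the 9 epithelial markers, most of it KRT8 and KRT18, was 56300 and 56380 normalized reads in control and 42730 and 43890 in depleted libraries. Of the 7 markers tested, 5 had a negative difference and 2 a positive one, KRT19 and CDX2. KRT19 was 8437 and 8465 in control and 9957 and 10221 in mutp53-depleted cells. CDX2 was 462 and 467 in control and 509 and 569 in mutp53-depleted cells. The part of the markers in these results was not tested. PVRL3 (nectin 3), an adhesion molecule, was 0.97 and 7.11 in control and 174 and 188 in mutp53-depleted cells, a difference of 5.51 (SE 0.52, limma adjusted p = 7.5e-08), and it stood out from chromosome 3 neighbours whose median was 0.68. PKP2, a desmosome plaque protein, was 1060.5 and 1171 in control and 2279 and 2287 in mutp53-depleted cells, a difference of 1.03 (SE 0.071, limma adjusted p = 1.2e-09) that fell under 2-fold without control replicate A (0.96) and with neighbours subtracted (0.37).

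Keratins and regulators of the epithelial to mesenchymal transition (EMT) were mixed. KRT23 was 3950.1 and 4733 in control and 16015 and 16217 in mutp53-depleted cells, a difference of 1.90 (SE 0.078, limma adjusted p = 1.9e-12), and 6 of 23 keratins were higher. KRT17, a basal keratin, was the single lower one, at 26.1 and 14.2 in control and 3.35 and 2.47 in mutp53-depleted cells, a difference of −2.39 (SE 0.55, limma adjusted p = 0.0014). Most of the called keratins lie in the chromosome 17 cluster, whose neighbours' median was near 0.52, and the list median of 0.26 became −0.059 without it. Of 32 EMT genes, 4 were higher and 7 lower. ZEB1, a repressor of epithelial genes, was 143 and 125 in control and 397 and 388 in mutp53-depleted cells, a difference of 1.54 (SE 0.12, limma adjusted p = 9.2e-09). PRRX1, a homeobox EMT factor, was 2.9 and 4.27 in control and 34.4 and 59.2 in mutp53-depleted cells, 12.9-fold (interval 5.68 to 36, limma adjusted p = 4.8e-07) higher. SNAI2, another such repressor, was 7.73 and 8.54 in control and 20.1 and 25.9 in mutp53-depleted cells, a difference of 1.39 (SE 0.39, limma adjusted p = 0.0067) that was not called by DESeq2 (adjusted p = 0.0535) or without depleted replicate B at 16 h (1.21, limma adjusted p = 0.063). INHBB, the activin B subunit, was 614 and 612 in control and 40.2 and 46.9 in mutp53-depleted cells, a difference of −3.79 (SE 0.14, limma adjusted p = 7.3e-13). NCAM1, a neural adhesion molecule often counted as mesenchymal, was 469.8 and 467 in control and 34.4 and 44.4 in mutp53-depleted cells, a difference of −3.55 (SE 0.14, limma adjusted p = 1.0e-12). The members called higher here are transcription factors and AXL, a receptor kinase, and those called lower are mainly TGF-β family receptors and ligands and adhesion molecules.

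Targets and feedback inhibitors of Wnt signalling were lower more often than higher. APCDD1, a membrane-bound Wnt inhibitor, was 10976 and 9424 in control and 1318 and 765 in mutp53-depleted cells, a difference of −3.34 (SE 0.16, limma adjusted p = 1.8e-11). NOTUM, an enzyme that removes the lipid of Wnt ligands, was 1215 and 949 in control and 123 and 62.9 in mutp53-depleted cells, a difference of −3.59 (SE 0.21, limma adjusted p = 1.6e-10). DKK4, a secreted inhibitor of the Wnt co-receptor, was 71.5 and 89.6 in control and 0.84 and 0 in mutp53-depleted cells, 158-fold (interval 27.9 to 6284, limma adjusted p = 1.7e-10) lower. Of 44 genes of the list, 15 were lower, among them ASCL2, EPHB2, LGR6, SP5, BAMBI, PROX1 and TDGF1, and 4 were higher. The higher genes were LEF1, FZD2, WNT10B and DKK1, a second inhibitor of the co-receptor at 254 and 239 in control and 529.9 and 518 in mutp53-depleted cells, a difference of 1.08 (SE 0.17, limma adjusted p = 2.5e-05). None of the 4 stayed past 2-fold with neighbours subtracted, where DKK1 was 0.999, whereas 13 of the 15 lower genes did.

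Growth factors and their receptors were called in both directions, 11 lower and 7 higher of 60. ERBB3, a receptor of the EGF receptor family, was 803 and 842 in control and 131 and 165 in mutp53-depleted cells, a difference of −2.48 (SE 0.11, limma adjusted p = 6.8e-12). PDGFA, a platelet-derived growth factor chain, was 1374 and 1162 in control and 269.96 and 294 in mutp53-depleted cells, a difference of −2.16 (SE 0.085, limma adjusted p = 1.1e-12), and its chromosome 7 neighbours had a median of −1.01. EDN3, an endothelin, was 7.73 and 5.69 in control and 0 and 0 in mutp53-depleted cells, a level at least 2.16-fold lower (limma adjusted p = 2.5e-04), and EGFR, MST1R and EREG fell too. PDGFC, a further chain of this family, was 0 and 1.42 in control and 13.4 and 12.3 in mutp53-depleted cells, 22.6-fold (interval 3.7 to 925, limma adjusted p = 1.1e-04) higher, and DUSP14, a phosphatase that acts on MAP kinases, was 345 and 320.1 in control and 911 and 979.9 in mutp53-depleted cells, a difference of 1.50 (SE 0.088, limma adjusted p = 1.6e-10). Among ephrins, semaphorins, plexins and Notch components, 25 of 70 were lower and 5 higher, with a median of −0.57. EPHB6, an Eph receptor without kinase activity, was 2245 and 1724 in control and 254 and 244 in mutp53-depleted cells, a difference of −2.98 (SE 0.10, limma adjusted p = 2.6e-13). SEMA3F, a repulsive guidance ligand, was 102 and 108 in control and 14.2 and 9.87 in mutp53-depleted cells, a difference of −3.04 (SE 0.23, limma adjusted p = 4.9e-09), and PLXNA2, a semaphorin receptor, was 45.4 and 29.9 in control and 0 and 3.7 in mutp53-depleted cells, 26.1-fold (interval 8.57 to 129.9, limma adjusted p = 1.1e-05) lower. The Notch ligands JAG2, DLL1 and DLL4 were lower. HES1, a Notch effector, was 196 and 159 in control and 426 and 465 in mutp53-depleted cells, a difference of 1.33 (SE 0.11, limma adjusted p = 1.6e-08), which was 0.62 and not called once its neighbours on chromosome 3 were subtracted. Among 38 AP-1 and ETS factors, 2 were higher and 4 lower. The epithelial ETS factors ELF3 and EHF were lower, at 262 and 267 in control and 78.8 and 59.2 in mutp53-depleted cells and a difference of −1.94 (SE 0.15, limma adjusted p = 7.2e-09) for ELF3, and 137 and 148 in control and 62 and 50.6 in mutp53-depleted cells and a difference of −1.33 (SE 0.23, limma adjusted p = 8.7e-05) for EHF.

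Targets of wild-type p53 were called at shares near those of all genes, 13.2% lower and 5.26% higher. CDKN1A (p21), the best known of them, was 1136 and 1030 in control and 875 and 968 in mutp53-depleted cells, a difference of −0.23 (SE 0.081, limma adjusted p = 0.022) that is under 2-fold. Of the 38 genes of the list, 5 were lower and 2 higher, with a median of −0.19. GDF15, a stress cytokine, was 171 and 128 in control and 10.9 and 9.87 in mutp53-depleted cells, a difference of −3.71 (SE 0.22, limma adjusted p = 2.1e-10), and PERP, a desmosome protein, was 14869 and 14275 in control and 4684 and 3080.3 in mutp53-depleted cells, a difference of −1.94 (SE 0.13, limma adjusted p = 6.2e-10). MDM2, the ubiquitin ligase of p53, was 499 and 568 in control and 1083 and 1096 in mutp53-depleted cells, a difference of 1.03 (SE 0.09, limma adjusted p = 2.3e-08), and TIGAR, a phosphatase that slows glycolysis, was 298 and 259 in control and 684 and 769 in mutp53-depleted cells, a difference of 1.38 (SE 0.099, limma adjusted p = 2.1e-09). Both lie on chromosome 12 beside neighbours with medians of 0.61 and 0.85, and with these subtracted they were 0.42 and 0.53 and not called. MDM2 was also under 2-fold without control replicate A at 16 h (0.94).

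Genes of cell death and stress included large changes of single members. RIPK3, the kinase of necroptosis, was 28 and 14.2 in control and 0 and 0 in mutp53-depleted cells, a level at least 6.8-fold lower (limma adjusted p = 1.6e-05). NLRP3, the inflammasome sensor, was 5.8 and 7.11 in control and 47.8 and 53.1 in mutp53-depleted cells, a difference of 2.79 (SE 0.47, limma adjusted p = 7.0e-05), and CASP4, the caspase that senses lipopolysaccharide, was 15.5 and 15.7 in control and 57.9 and 75.3 in mutp53-depleted cells, a difference of 2.02 (SE 0.30, limma adjusted p = 1.8e-05). In that list 6 of 44 genes were higher and 2 lower, with 6 lower without depleted replicate A at 16 h. HSPB8, a small heat shock protein (chr12:119616595-119632551), was 93.8 and 93.9 in control and 0.84 and 1.23 in mutp53-depleted cells, 94-fold (interval 25.6 to 782, limma adjusted p = 2.9e-08) lower. DDIT3 (CHOP), a factor of the unfolded protein response, was 126 and 152 in control and 593 and 574 in mutp53-depleted cells, a difference of 2.07 (SE 0.12, limma adjusted p = 1.1e-10). HSPA1A, an inducible HSP70, was 262 and 211 in control and 483 and 543 in mutp53-depleted cells, a difference of 1.12 (SE 0.12, limma adjusted p = 3.2e-07), but it shares near-identical sequence with HSPA1B and fell under 2-fold without control replicate B at 16 h (0.96).

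Among enzymes of detoxification, 12 of 77 were lower. ALDH1A3, which makes retinoic acid, was 5908 and 6281 in control and 1049.6 and 1052 in mutp53-depleted cells, a difference of −2.53 (SE 0.065, limma adjusted p = 5.7e-15). ALDH3A1, which oxidises fatty aldehydes, was 116 and 151 in control and 5.03 and 7.4 in mutp53-depleted cells, a difference of −4.23 (SE 0.26, limma adjusted p = 2.5e-10). MAOA, which oxidises amines, rose and was 106 and 112 in control and 1362 and 1487 in mutp53-depleted cells, a difference of 3.69 (SE 0.16, limma adjusted p = 5.0e-12). CYP24A1, the vitamin D hydroxylase, was 189 and 222 in control and 78 and 45.7 in mutp53-depleted cells, a difference of −1.76 (SE 0.25, limma adjusted p = 9.2e-06). Of 53 genes of cholesterol and fatty acid metabolism, 8 were lower and 1 higher, with a median of −0.41. TM7SF2, a sterol reductase, was 306 and 302 in control and 42.8 and 45.7 in mutp53-depleted cells, a difference of −2.75 (SE 0.13, limma adjusted p = 1.4e-11). ACSL5, a fatty acid activating enzyme, was the higher one, at 218 and 176 in control and 699 and 658 in mutp53-depleted cells, a difference of 1.78 (SE 0.16, limma adjusted p = 3.5e-08). Genes of glycolysis and hypoxia were called in both directions, 3 higher and 5 lower of 48, with a median of −0.032. The higher genes were LOX, LDHB and SLC2A3. With neighbours subtracted, 1 of the higher and 4 of the lower calls remained. Among the lower genes, CA9, a carbonic anhydrase, was 10.6 and 14.2 in control and 0 and 0 in mutp53-depleted cells, a level at least 4-fold lower (limma adjusted p = 2.2e-05). EPAS1 (HIF-2α), also lower, was 5933 and 5994 in control and 2014 and 2231 in mutp53-depleted cells, a difference of −1.49 (SE 0.068, limma adjusted p = 7.7e-12).

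Few genes of housekeeping programmes were called. No proteasome gene of 34 was called by limma, edgeR or DESeq2, and 20 had an unadjusted p under 0.05 in the limma fit, while 1 was called higher without control replicate B or without depleted replicate A at 16 h. Of 80 ribosomal protein genes only RPL24 was called, at 359 and 384 in control and 726 and 769 in mutp53-depleted cells, a difference of 1.01 (SE 0.087, limma adjusted p = 2.2e-08), and of 100 respiratory chain genes only NDUFA4, at 1358 and 1255 in control and 489 and 473 in mutp53-depleted cells, a difference of −1.44 (SE 0.092, limma adjusted p = 4.6e-10). RPL24 was not called with a pseudocount of 5 (0.9996), without control replicate A (0.96) or without depleted replicate B (0.97), and neither gene was called with neighbours subtracted (0.30 and −0.64). Replication and mitosis genes were called higher in 2 of 98 cases, while 83 had a positive sign around a median of 0.24. FOXM1, a mitotic transcription factor, was 1855 and 2202 in control and 5322 and 5357 in mutp53-depleted cells, a difference of 1.40 (SE 0.078, limma adjusted p = 7.6e-11), next to chromosome 12 neighbours at 0.83. With these subtracted it was 0.57 and not called, and no gene of that list stayed called higher.

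Ion channels and transporters were lower more often than higher, 31 of 111 channels against 7, and 42 of 245 solute carriers against 11 (7 without control replicate B at 16 h). ANO4, an anoctamin of the chloride channel and scramblase family (chr12:101188374-101522419), was 119.9 and 131 in control and 0 and 0 in mutp53-depleted cells, a level at least 40.3-fold lower (limma adjusted p = 2.0e-11). GRIN1, the shared NMDA receptor subunit, was 74.4 and 83.9 in control and 5.03 and 1.23 in mutp53-depleted cells, a difference of −4.45 (SE 0.42, limma adjusted p = 7.2e-08), and GRIK4, a kainate receptor subunit, was 132 and 107 in control and 5.87 and 7.4 in mutp53-depleted cells, a difference of −3.98 (SE 0.33, limma adjusted p = 1.3e-08). RYR2, a calcium release channel, was 1.93 and 2.85 in control and 55.3 and 55.5 in mutp53-depleted cells, 24.1-fold (interval 9.14 to 89.9, limma adjusted p = 8.9e-08) higher. Zinc finger ZNF genes leaned the other way, with 54 of 434 higher and 14 lower and a median of 0.23 (0.30 with neighbours subtracted). Under that subtraction, 30 of the 54 higher calls and 7 of the 14 lower calls remained. ZNF177 was 1.93 and 4.27 in control and 35.2 and 38.3 in mutp53-depleted cells, 12.7-fold (interval 5.19 to 40.2, limma adjusted p = 2.7e-06) higher, and ZNF813 was 30.9 and 25.6 in control and 0 and 1.23 in mutp53-depleted cells, 57.6-fold (interval 9.88 to 2322, limma adjusted p = 5.4e-06) lower. These genes share sequence, so that reads may have been split among copies.

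**Figure D3:**
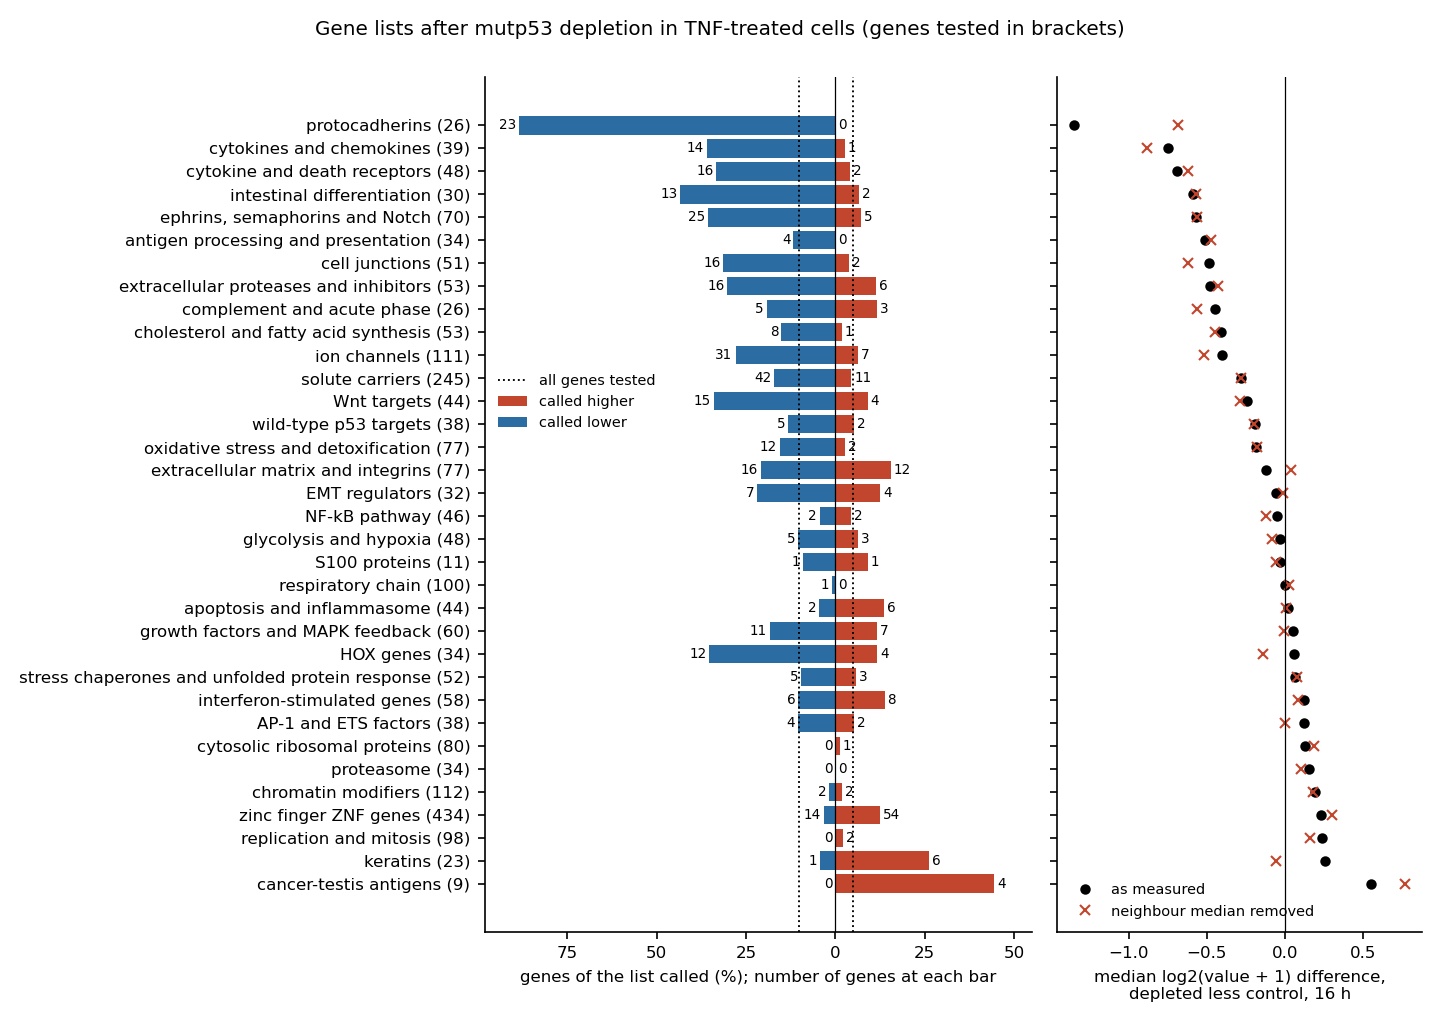
For each of 34 gene lists, the left panel gives the percentage of tested genes called lower (blue) and higher (red) after mutp53 depletion at 16 h, with the number at each bar and dotted lines at 10.2% and 5.03% for all genes, and the right panel gives the list's median log2(value + 1) difference before (dots) and after (crosses) the neighbours' median was subtracted. The medians ran from −1.35 for protocadherins to 0.55 for cancer-testis antigens.

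The largest changes among well expressed genes were not limited to these lists. HBB, the adult β-globin (chr11:5246696-5248301), was 0.97 and 0 in control and 291 and 325 in mutp53-depleted cells, 529-fold (interval 94.6 to 20931, limma adjusted p = 7.3e-10) higher, and HBB shares near-identical sequence with its paralog HBD, between which reads could be split. MAGEB2, a cancer-testis antigen of the X chromosome (chrX:30233675-30238206), was 0 and 0 in control and 111 and 99.96 in mutp53-depleted cells, a level at least 29.4-fold higher (limma adjusted p = 6.3e-10). ALPK2, an atypical kinase, was 14.5 and 24.2 in control and 879 and 871 in mutp53-depleted cells, a difference of 5.47 (SE 0.26, limma adjusted p = 1.0e-11), and MARCH4, a membrane ubiquitin ligase, was 39.6 and 25.6 in control and 902 and 1082 in mutp53-depleted cells, a difference of 4.91 (SE 0.23, limma adjusted p = 1.0e-11). LINC01234, a long non-coding RNA, was 4.83 and 4.27 in control and 123 and 164 in mutp53-depleted cells, a difference of 4.69 (SE 0.27, limma adjusted p = 1.6e-10). TRPS1, a GATA-type repressor, was 3.87 and 7.11 in control and 89.7 and 76.5 in mutp53-depleted cells, a difference of 3.74 (SE 0.35, limma adjusted p = 6.4e-08). Further large falls were those of a co-receptor, a receptor, an exporter, an enzyme and a follistatin-like protein. SORCS2, a neurotrophin co-receptor, was 200.1 and 202 in control and 3.35 and 3.7 in mutp53-depleted cells, a difference of −5.48 (SE 0.29, limma adjusted p = 4.2e-11). GPR35, a G protein-coupled receptor of the gut, was 206 and 182 in control and 4.19 and 3.7 in mutp53-depleted cells, a difference of −5.30 (SE 0.25, limma adjusted p = 1.1e-11). SPNS2, the exporter of sphingosine-1-phosphate, was 227 and 195 in control and 5.03 and 4.94 in mutp53-depleted cells, a difference of −5.14 (SE 0.29, limma adjusted p = 8.1e-11). MGAT3, which adds bisecting sugars to N-glycans, was 145 and 114 in control and 5.03 and 1.23 in mutp53-depleted cells, a difference of −5.14 (SE 0.38, limma adjusted p = 3.6e-09), and FSTL4, a follistatin-like protein, was 152 and 155 in control and 2.52 and 2.47 in mutp53-depleted cells, 61.3-fold (interval 26 to 190.5, limma adjusted p = 2.1e-11) lower. Each of these genes was called in the same direction at 0 h.

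A part of the differences was shared by long runs of chromosome neighbours. The tested genes of each chromosome were put in order and read in 559 windows of 50 genes, each overlapping the next by 25. In 71 windows (12.7%) the median difference was at least 0.5 in size, 38 higher and 33 lower. All 71 had the same sign in the separate 0 h libraries, 61 of them also at 0.5 or more. For TNF-α in control cells no window reached 0.5, and the largest median was 0.278 in size. The 71 windows held 2350 genes, of which 259 were called higher and 392 lower. They joined into 23 runs.

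**Figure D4:**
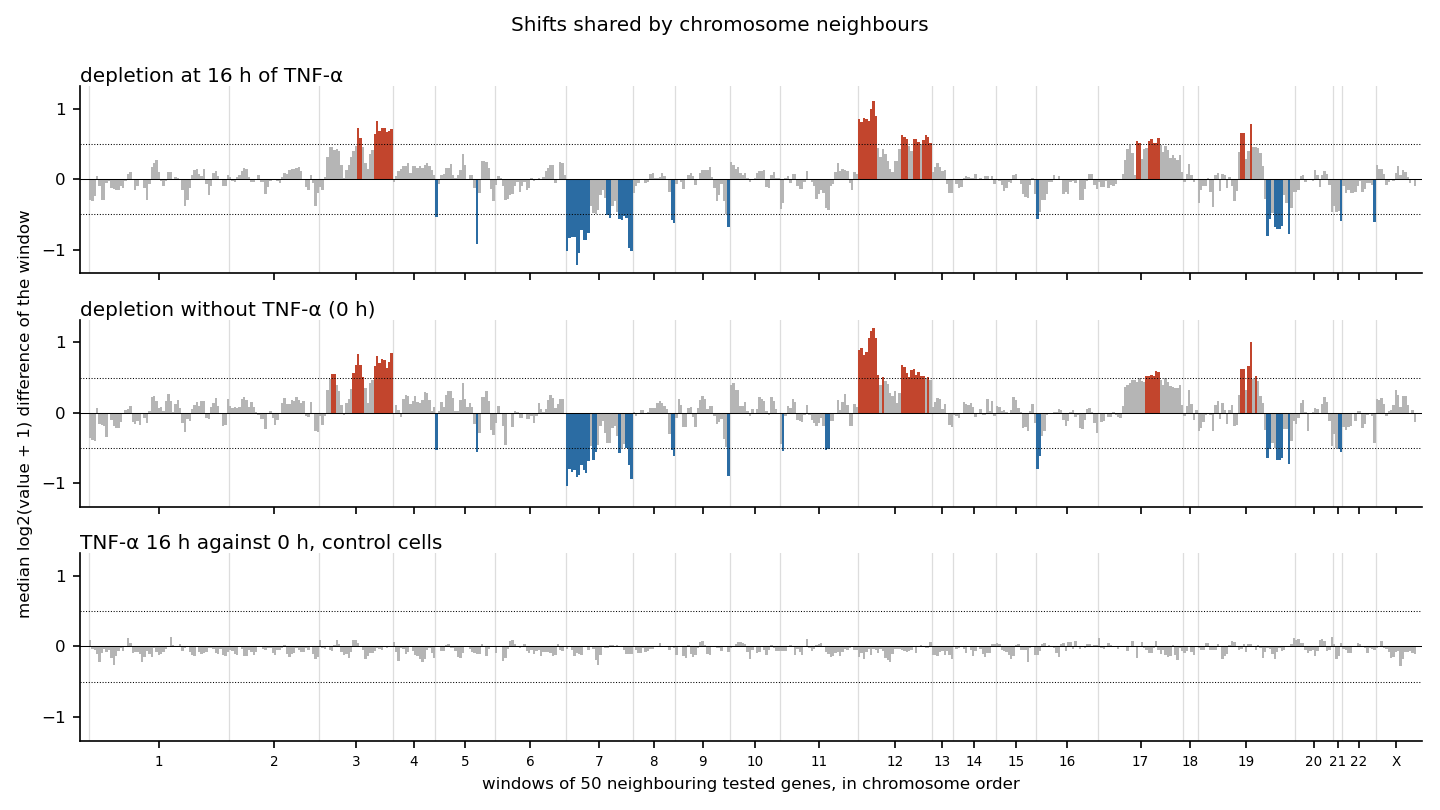
Median log2(value + 1) difference of windows of 50 neighbouring tested genes in chromosome order, for depletion at 16 h (top), depletion at 0 h (middle) and TNF-α in control cells (bottom), with dotted lines at 0.5 and windows beyond them in red (higher) or blue (lower). The runs on chromosomes 3, 7, 12, 17 and 19 appear in both upper panels, and no window passes the lines in the bottom panel.

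The longest lower run covered chr7:149718-65865395 (hg19). It held 275 genes with a median of −0.86 at 16 h and −0.85 at 0 h. Of these genes, 252 (91.6%) were negative. There, 106 genes were called lower and 3 higher. A second lower run, chr7:116312459-155101945, held 175 genes with a median of −0.68. The largest higher runs were chr12:73725-45459194, with 225 genes, a median of 0.86 and 79 called higher, and chr3:136537861-196559518, with 225 genes, a median of 0.69 and 52 called higher. On chromosome 19, chr19:36631029-39340617 had a median of 0.78, and 4 windows from 48551100 to 52552073 had a median of −0.68. Medians over whole chromosomes were −0.64 for chromosome 7, 0.54 for 12, 0.40 for 3, −0.51 for 21 and 0.26 for 17.

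The most abundant genes of the most shifted windows mostly lay within 0.5 of their neighbours' median. EIF3B, a translation initiation factor on chromosome 7, was 7016 and 7553 in control and 3856 and 3934 in mutp53-depleted cells, a difference of −0.90 (SE 0.068) beside neighbours at −0.99. SLC4A2, an anion exchanger on the long arm, was 4603 and 4334 in control and 2076 and 1919 in mutp53-depleted cells, a difference of −1.16 (SE 0.076, limma adjusted p = 6.9e-10) beside neighbours at −0.998. On chromosome 12, LDHB, a lactate dehydrogenase chain, was 4801 and 5459 in control and 15551 and 15607 in mutp53-depleted cells, a difference of 1.61 (SE 0.073, limma adjusted p = 7.3e-12) beside neighbours at 1.12. PPFIBP1 (liprin β1) was 5499.7 and 6002 in control and 13427 and 13167 in mutp53-depleted cells, a difference of 1.21 (SE 0.07, limma adjusted p = 1.4e-10), and EMP1, an epithelial membrane protein, was 2631 and 2509.6 in control and 6022 and 6203 in mutp53-depleted cells, a difference of 1.25 (SE 0.066, limma adjusted p = 3.6e-11), beside neighbours at 1.06 and 0.85. HNRNPA2B1, an RNA-binding protein in the lowest window of chromosome 7, was 13616 and 13555 in control and 11831 and 11997 in mutp53-depleted cells, a difference of −0.19 (SE 0.077) beside neighbours at −1.31. The HOX list divides along the same lines. Among its 12 lower genes, 11 are HOXA genes of chromosome 7, among them HOXA5 at 344 and 307 in control and 41.9 and 61.7 in mutp53-depleted cells, a difference of −2.65 (SE 0.17, limma adjusted p = 4.4e-10), and HOXA3 at 342 and 361 in control and 79.7 and 60.5 in mutp53-depleted cells, a difference of −2.32 (SE 0.14, limma adjusted p = 1.7e-10), beside neighbours at −1.34 and −1.31. All but 1 of the 23 lower protocadherin genes (26 tested) belong to the γ cluster of chromosome 5, whose transcripts share 3′ exons. PCDHGB5, at 378 and 376 in control and 153 and 138 in mutp53-depleted cells, is an example, and its difference was −1.37 (SE 0.11, limma adjusted p = 9.1e-09).

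With the median of the 50 nearest tested genes subtracted from the depleted libraries, 538 genes were called higher (3.64%) and 1257 lower (8.49%). Of the original calls, 454 higher and 1109 lower genes remained, 290 and 402 were lost, and 84 and 148 were new. The lower cytokine and receptor genes were kept in 12 of 14 and 15 of 16 cases, and the lower genes of the junction, intestinal and Wnt lists in 14 of 16, 12 of 13 and 13 of 15. All 23 lower protocadherin calls were lost. The neighbours of a γ cluster gene include other genes of that cluster, so this loss cannot separate the cluster from its region. Some genes ran against their surroundings. ANO4, SOX14, PLOD2, GSDMA and HSPB8 fell among neighbours that were higher by 0.53, 0.56, 0.71, 0.53 and 0.50. SOX14, a neural transcription factor, was 27.1 and 28.4 in control and 1.68 and 0 in mutp53-depleted cells, 27.7-fold (interval 7.25 to 235, limma adjusted p = 1.7e-06) lower, and PLOD2, a collagen lysyl hydroxylase, was 10.6 and 12.8 in control and 0 and 1.23 in mutp53-depleted cells, 23.1-fold (interval 3.69 to 956, limma adjusted p = 8.1e-04) lower. GSDMA, a gasdermin, was 21.3 and 12.8 in control and 4.19 and 0 in mutp53-depleted cells, a difference of −2.94 (SE 0.67, limma adjusted p = 0.0012). ETV1, an ETS factor, was 26.1 and 42.7 in control and 87.2 and 83.9 in mutp53-depleted cells, a difference of 1.33 (SE 0.21, limma adjusted p = 3.0e-05) among chromosome 7 neighbours at −0.80, and it was at 0.99 and not called without control replicate A at 16 h.

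**Figure D5:**
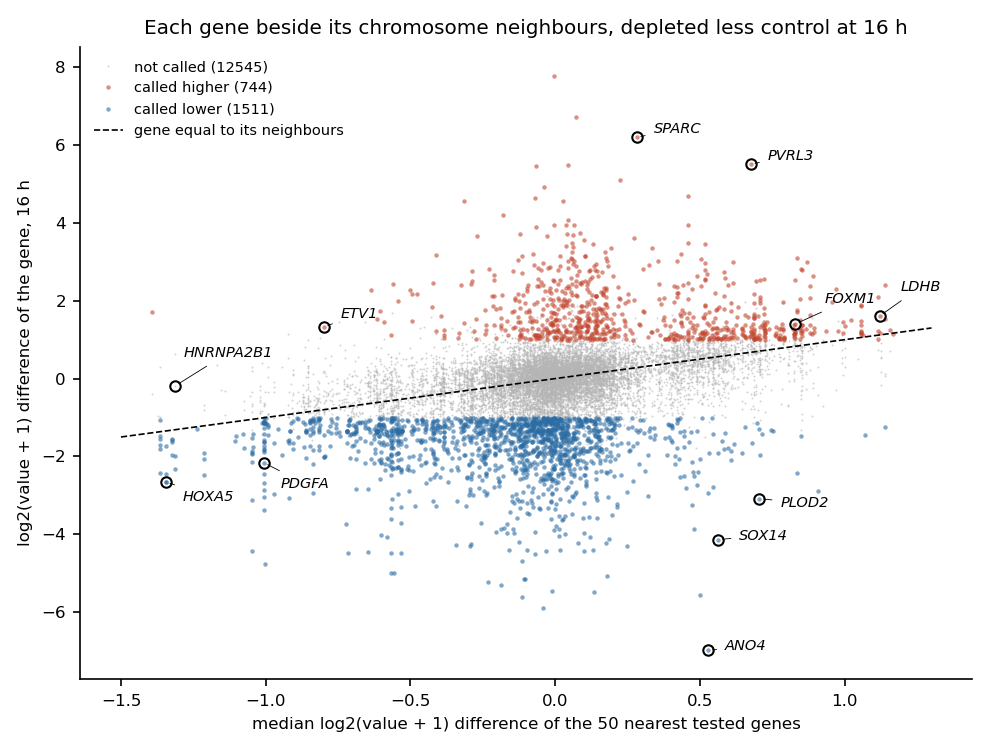
The log2(value + 1) difference of each tested gene at 16 h (y axis) against the median of its 50 nearest tested neighbours (x axis), with genes called higher in red, called lower in blue and not called in grey. LDHB, FOXM1 and HOXA5 lie on the side of their neighbours, and ANO4, SOX14, PLOD2 and ETV1 lie on the opposite side.

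CPA4, a carboxypeptidase that the study examined at an enhancer and as mRNA, was 55.1 and 28.4 in control and 31 and 14.8 in mutp53-depleted cells, a difference of −0.85 (SE 0.57, limma adjusted p = 0.23), which was not called, and its groups overlapped. By qRT-PCR, the study reported a decrease of TNF-induced CPA4 mRNA after mutp53 knockdown.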

How the data were processed

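The authors made strand-specific libraries from poly(A)-selected RNA of the 4 SW480 groups, and sequenced them as single-end reads. The labels name hg38 and the methods STAR for mapping, whereas the header of the deposited table names hg19, from which the gene coordinates given here were taken. The deposited values are a signal, namely reads on each gene's exons multiplied by 1 factor per library, and in every library 100% of them were whole multiples of the value of 1 read (within 0.0051 plus 1e-06 of the value). The authors used edgeR for their own comparisons. GEO lists 1 sample a group, and the replicate letters come from the column names.

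Here, limma 3.58.1 (R 4.3.3) with a mean-variance trend was fitted to log2(value + 1) of the 8 libraries with 4 group means, for genes with a mean of at least 2.5. Calls needed 2-fold and 0.05 after Benjamini-Hochberg adjustment over all genes tested. The procedure was tested on simulated data. Alternatives were edgeR 4.0.16 and DESeq2 1.42.0 on the recovered reads, other scaling, filters, pseudocounts (0.1 and 5) and window sizes, the 4 libraries at 16 h alone, a replicate block, subtraction of the median of the 50 nearest genes, and omission of single libraries. A group with 0 reads in both libraries was set to 3 reads per library, which gives a bound. Where a group's libraries held no more than 3 reads each, the ratio of reads is given with its exact interval.

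The comparison, the 34 gene lists and the naming rule were chosen with earlier results of these data known. Genes with values are the 10 largest rises and 10 largest falls with a mean of at least 50 in the higher group, up to 3 called genes a direction in each list, the 2 most abundant genes of the 6 most shifted windows, the 5 called genes most against their neighbours, and 7 genes the study names. Other symbols, and the choice among these, were picked after their values were seen. Some genes that this rule selects are not reported here. Other assays of the series were not used here.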

Additional observations from a re-analysis of the deposited data

Results flagged for a closer look

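The depletion effect after TNF-α and the effect without it were compared by the limma interaction, which is the log2 difference at 16 h less the log2 difference at 0 h. Its limma adjusted p was below 0.05 in 30 of the 120 genes whose values are given here and for 424 of all 14800 genes tested. Among the 2255 genes called at 16 h it was below 0.05 for 166. The 120 genes were chosen mainly for large differences at 16 h, which enter the interaction. Their share and the directions below are therefore favoured by that choice. The adjusted p values of the 30 genes ran from 2.1e-10 (TNFAIP2) to 0.032 (NOTUM), each with n = 2 libraries a group.

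Among genes that were lower after depletion at 16 h, the difference lay further below that at 0 h for 17. The largest interactions, in brackets, were those of LTB (−5.71), UBD (−5.22), HSPB8 (−4.85), CCL7 (−3.85) and MMP11 (−3.17). The other genes of this kind were TNFAIP2 (−2.66), CCL2 (−2.24), ELF3 (−2.06), TNFRSF6B (−1.98), KLK10 (−1.89), APCDD1 (−1.61), HOXA3 (−1.36), NOTUM (−1.21), PERP (−1.11), HOXA5 (−1.06), RELB (−0.89) and ERBB3 (−0.85). Among them, TNFAIP2 was called higher after depletion without TNF-α (1.24) and lower with it. LTB also passed the rule as higher without TNF-α (1.27, limma adjusted p = 0.048), but from few reads. Its 0 h values were 4.35 and 0 in control and 7.37 and 2.74 in depleted cells, so the groups overlapped and no reversal is read from it. CCL2 (0.18) and ELF3 (0.12) had small positive differences at 0 h, and UBD and CCL7 had no reads there. HSPB8 was 4.35 and 4.54 in control and 2.01 and 2.74 in depleted cells at 0 h. For LTB, UBD, HSPB8, CCL7 and CCL2, a fall as large as at 16 h could barely show from such low levels. Their interactions therefore do not show that TNF-α changed the depletion effect. The fall was smaller at 16 h for EHF (1.71), INHBB (1.04) and EPHB6 (0.74). EDN3 also had a positive interaction (4.31), from −7.25 at 0 h and −2.93 at 16 h. At 16 h it was low in control and had no reads in depleted cells. Its fall there is only a bound, so a smaller fall is not shown.

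Among genes that were higher after depletion at 16 h, the rise was larger than at 0 h for SERPINB2 (5.19), COL6A3 (2.12) and HES1 (0.85). SERPINB2 had at most 5.08 normalized reads in any library without TNF-α. The rise was smaller at 16 h than at 0 h for BIRC3 (−2.84), MAOA (−2.05), UBE2L6 (−1.43), ACSL5 (−1.16), EMP1 (−0.67) and PPFIBP1 (−0.47).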

How the results depend on the processing

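The counts of 744 higher and 1511 lower genes stayed within 1.5 times under every alternative run, from 538 to 862 higher and from 1257 to 1609 lower. On the recovered reads, edgeR's quasi-likelihood test gave 708 and 1541, its exact test 720 and 1555, and DESeq2 593 and 1323. With 1 library omitted at a time, 660 to 751 genes were higher and 1340 to 1609 lower, a lone library being assumed to vary like the other groups. The letters A and B did not pair the libraries (correlations of deviations from −0.019 to 0.074), and the fit with a replicate block gave 749 and 1522. The number of shifted windows depends on their size by construction, with 112 higher and 114 lower of 1447 windows of 20 genes (15.6%), and 20 higher and 9 lower of 262 windows of 100 genes (11.1%).

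Over 2272 values of the genes described under an alternative, 2235 kept their direction and side of the threshold, 35 lost the call, 16 of these when the neighbours' median was subtracted, and 2 reversed. The reversals, under that subtraction, were EIF3B (0.088) and HNRNPA2B1 (1.12), which only shows that they fell less than their neighbours. Of 1292 list counts under an alternative, 1222 stayed within 1.5 times, and most of the 70 that moved were counts of 5 or fewer genes. Subtraction of the neighbours' median moved the lower HOX genes from 12 to 4, protocadherins from 23 to 0 and ZNF genes from 14 to 7, and the higher growth factor genes from 7 to 4 and solute carriers from 11 to 7. Clustered HOXA and γ protocadherin genes are among each other's neighbours, so their lost calls do not show a shift of the wider region. The medians of the matrix, EMT, growth factor, HOX, keratin and respiratory chain lists changed sign between settings, so no direction is read from them. At 16 h 1 read was worth up to 1.42 normalized reads, so changes of genes with few reads remain imprecise.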

Other observations

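Chromatin modifiers were called higher in 2 and lower in 2 of 112 cases, with a median of 0.19. The largest of these changes was that of SMARCD3, a subunit of SWI/SNF remodelling complexes, at 88.9 and 88.2 in control and 12.6 and 8.64 in mutp53-depleted cells, a difference of −2.97 (SE 0.24, limma adjusted p = 1.0e-08) beside chromosome 7 neighbours at −0.97. TET3, a DNA demethylase, and KDM4D, a histone demethylase, were the higher genes, and HDAC11, a histone deacetylase, was the other lower one. Of the 133 cancer-testis genes listed, 9 were expressed enough to be tested, and 4 of these were higher (2 by DESeq2 and 2 without control replicate A at 16 h). They were MAGEB2, TEX14, TEX19 and TEX15, the last at 36.7 and 59.8 in control and 123 and 107 in mutp53-depleted cells, a difference of 1.28 (SE 0.24, limma adjusted p = 2.2e-04) that was not called without control replicate A at 16 h. Among 11 S100 genes, which encode small calcium-binding proteins, S100A5 was higher and S100A3 lower, at 918 and 895 in control and 336 and 273 in mutp53-depleted cells, a difference of −1.58 (SE 0.12, limma adjusted p = 5.2e-09).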
